A study of Mus musculus with 37 samples.

Results

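The genes through which hippocampal astrocytes take up, make, break down and sense GABA were followed across post-traumatic epilepsy and brain hemispheres. The set was a list of 8 symbols, Slc6a11, Abat, Aldh5a1, Maob, Gabra2, Gabrb1, Gabrg1 and Gabbr1, matched to 8 of the 21975 gene identifiers in the tables and not picked by a threshold on measured values. Male wild-type mice, whose strain the labels give as CD31 and the methods as CD1, underwent controlled cortical impact (CCI) over the right parietal cortex or sham surgery, with no transgene in any group. Injured mice were then divided by EEG and video monitoring into PTE+ mice, with at least 2 epileptic episodes, and PTE- mice, with fewer. At 4 months after surgery, astrocytes were separated from each hippocampus on beads against ACSA-2, an astrocyte surface antigen, and sequenced in bulk as separate contralateral libraries (5 PTE+, 10 PTE-, 5 sham) and ipsilateral libraries (4 PTE+, 8 PTE-, 5 sham). The comparisons asked whether these genes differed with epilepsy, with injury, or between the hemispheres.

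GABA is the main inhibitory transmitter of the forebrain, and astrocytes clear it from the extracellular space through membrane transporters, among them the one encoded by Slc6a11. Inside the cell the transaminase encoded by Abat converts GABA to succinic semialdehyde, which the dehydrogenase encoded by Aldh5a1 oxidises, while monoamine oxidase B (Maob) takes part in a route by which astrocytes form GABA from putrescine. Astrocytes also sense GABA, through chloride channels assembled from GABA-A subunits (Gabra2, Gabrb1 and Gabrg1) and through the G-protein-coupled GABA-B receptor, of which Gabbr1 encodes the ligand-binding subunit.

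The 3 GABA-A subunit genes lie together on chromosome 5 of GRCm38, the assembly of mm10, with Gabrg1 at chr5:70751047-70842617 and Gabra2 at chr5:70957597-71095849 on the minus strand and Gabrb1 at chr5:71658113-72149037 on the plus strand. The start of Gabrb1 overlaps that of Gabra4 (chr5:71569749-71658308, minus strand), so that reads from the shared stretch could not be told apart without strand. The other members lie at chr6:114131241-114249952 (Slc6a11, plus strand), chr16:8513429-8621568 (Abat, plus), chr13:24907579-24937661 (Aldh5a1, minus), chrX:16709282-16817366 (Maob, minus) and chr17:37045966-37075067 (Gabbr1, plus). Promoter sequences of RefSeq on GRCm38.p6 were found for 6 of the 8 members. The 250 bases before the start are shown for Slc6a11, the member with the highest level, and for the neighbouring receptor genes Gabrg1 and Gabra2, which lie on the same strand and differed in level. Each runs 5′ to 3′ along its gene's strand, with capitals wherever 1 of 3 short motifs stood on either strand. The motifs searched were the TATA box, with the letters TATAAA, the CAAT box, read as CCAAT in these windows, and the GC box, which was searched as GGGCGG.
Slc6a11, chr6:114130991-114131240, plus strand: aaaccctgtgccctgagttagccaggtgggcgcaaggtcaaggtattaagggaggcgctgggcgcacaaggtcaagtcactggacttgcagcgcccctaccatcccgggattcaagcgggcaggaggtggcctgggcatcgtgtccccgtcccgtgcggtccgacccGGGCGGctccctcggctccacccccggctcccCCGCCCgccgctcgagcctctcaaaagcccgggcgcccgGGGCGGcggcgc
Gabrg1, chr5:70842618-70842867, minus strand: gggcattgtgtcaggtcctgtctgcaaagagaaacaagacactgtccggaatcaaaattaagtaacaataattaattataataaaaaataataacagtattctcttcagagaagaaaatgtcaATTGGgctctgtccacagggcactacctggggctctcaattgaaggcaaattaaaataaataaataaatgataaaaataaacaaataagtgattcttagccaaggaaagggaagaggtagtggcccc
Gabra2, chr5:71095850-71096099, minus strand: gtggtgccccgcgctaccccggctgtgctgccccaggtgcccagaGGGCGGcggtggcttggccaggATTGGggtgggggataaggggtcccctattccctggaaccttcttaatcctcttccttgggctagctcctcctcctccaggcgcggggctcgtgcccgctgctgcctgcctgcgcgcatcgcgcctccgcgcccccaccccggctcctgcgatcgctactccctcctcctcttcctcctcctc
The Slc6a11 window held 71.2% G and C, 25 CG dinucleotides and 3 GC boxes, at 83 and 12 bases before the start and, on the opposite strand, at 51. The Gabra2 window held 70.0% G and C and 18 CG, with a GC box at 205 and a CAAT box, on the opposite strand, at 183 bases before the start. The Gabrg1 window differed from both in base composition, with 35.6% G and C, 1 CG and a single CAAT box on the opposite strand, 127 bases before the start. Over 32851 promoters of the same length the median was 52.4% G and C and 6 CG, and the TATA, CAAT and GC boxes stood in 12.4%, 33.8% and 32.7% of them. These matches describe the letters only.

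The libraries held 25371887 to 59846479 counts each. All 10 astrocyte markers of the list were above the counting limit of 3 counts in all 37 libraries, from a median of 180 TPM for Sox9 to 8472 TPM for Aldoc. Their summed level was 12397 to 20741 TPM in contralateral libraries and 12965 to 21092 TPM in ipsilateral PTE+ and sham libraries, but reached as low as 5909 TPM in ipsilateral PTE-. Markers of other cells were also measured, since neuronal markers summed to 62.1 to 1288 TPM and endothelial and mural markers to 96.9 to 5599 TPM. Ependymal and choroid plexus markers summed to 94.5 to 9497 TPM, highest in ipsilateral PTE- mouse a9_12. Oligodendrocyte lineage markers summed to 334 to 2186 TPM and microglia markers to 27.05 to 1074 TPM. The ipsilateral library of PTE- mouse a8_11 stood apart: it had 9020 detected genes, the fewest of all, and 2234 of 6953 well-expressed genes were at the counting limit against a median of 11 over all libraries. In it 3 members were at that limit, with 0 counts of Abat and Gabrg1 and 2 of Maob, so that results that rest on it are also given without it. Whether its counts come from the animal or from the library was not tested.

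Per transcript length the members covered more than 10-fold in level, from Slc6a11 to Aldh5a1. In contralateral libraries the median TPM (transcript level per length, scaled to the same total) was 202 for Slc6a11, 150.4 for Maob, 136 for Gabrb1, 121 for Abat, 93.7 for Gabbr1, 77.0 for Gabrg1, 32.3 for Gabra2 and 13.9 for Aldh5a1. The low end of this order was steady between mice, Gabrg1 exceeding Gabra2 in 19 of 20 libraries and Gabra2 exceeding Aldh5a1 in 20. Slc6a11 exceeded Maob in 15 and Abat exceeded Gabbr1 in 17. The other neighbours traded places, with Maob above Gabrb1 in 12, Gabrb1 above Abat in 13 and Gabbr1 above Gabrg1 in 11 libraries. Whether these pairs differed was not tested. The ipsilateral order was the same except that Gabrb1 (176 TPM) stood above Maob (139 TPM), in 11 of 17 libraries. Slc6a11 exceeded Gabrb1, the next gene on that side, in 11 of 17 as well. Over both hemispheres the spread in TPM between libraries was narrowest for Gabbr1, with a coefficient of variation of 27.4%, and widest for Aldh5a1, at 67.4%, with the other 6 members between 35.1% (Gabrb1) and 53.0% (Gabrg1).

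Slc6a11, the GABA transporter that is largely restricted to astrocytes, overlapped between PTE+, PTE- and sham mice in both hemispheres. Within a gene, levels are given below as CPM, read counts divided by library size and put on a common total, with TMM, a factor that evens out library composition. Contralateral Slc6a11 was 324, 475, 475, 604 and 678 CPM in PTE+ mice and 480.5, 569.7, 593, 596 and 825 CPM in sham mice. In PTE- mice it ran from 68.3 to 932 CPM with a median of 534. The PTE- libraries thus spanned those of both other groups, with means of 511 ± 136 (SD, n = 5) in PTE+, 556 ± 276 (n = 10) in PTE- and 613 ± 128 (n = 5) in sham mice. Ipsilateral values were 437, 478, 522 and 691 CPM in PTE+ and 373, 373, 693, 712 and 901 CPM in sham mice, and 55.8 to 934 CPM with a median of 511 in PTE-, the lowest being a8_11. The fitted log2 fold change of PTE+ against PTE- was -0.12 (SE 0.37, 95% interval -0.88 to 0.64) contralaterally and 0.014 (SE 0.46, -0.95 to 0.98) ipsilaterally, and the latter was -0.12 without a8_11.

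Maob, whose product oxidises amines including putrescine derivatives, was the member with the lowest ipsilateral PTE+ values relative to sham. Contralateral Maob was 123, 179, 219, 229 and 336 CPM in PTE+ and 124, 176, 183, 232 and 273 CPM in sham mice, and 107 to 341 CPM with a median of 283 in PTE-. All 3 contralateral groups overlapped. Ipsilateral Maob was 16.9, 117, 151 and 205 CPM in PTE+ mice and 194, 208, 219, 228 and 269 CPM in sham mice. Of the PTE+ mice, 3 of 4 lay below every sham mouse, and a9_19 lay furthest below. PTE- mice ran from 0.0517 (a8_11) to 342 CPM with a median of 192, and from 99.99 CPM without a8_11. The difference of PTE+ from sham in mean log2(CPM + 1) was -1.31 (2-sided exact permutation p = 0.0159, where 4 against 5 mice allow 0.00794 at the lowest), but the Benjamini-Hochberg value over the 48 member and group comparisons was 0.762. Without a9_19 the difference was -0.53 (exact permutation p = 0.0357, unadjusted), and edgeR's fitted value for the same comparison went from -0.87 to -0.50. edgeR gave a fitted log2 fold change of -0.66 for ipsilateral PTE+ against PTE- (SE 0.91, 95% interval -2.57 to 1.25), which was -0.82 without a8_11 and -0.30 without a9_19, and -0.23 contralaterally (SE 0.28, -0.81 to 0.35). The ipsilateral difference of PTE+ from PTE- had opposite signs by prefix of the mouse name, 2.14 among a8 mice and -1.59 among a9 mice on the log2(CPM + 1) scale, the a8 value resting on 1 PTE+ mouse against 3 PTE- mice with a8_11 among them.

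Aldh5a1, the last step of GABA breakdown before the citric acid cycle, was the lowest member and, over both hemispheres together, the most variable in TPM. Its coefficient of variation was 81.0% ipsilaterally and 51.4% contralaterally, where that of Gabrg1 was wider at 56.3%. Contralaterally it was 25.4, 31.8, 41.2, 49.2 and 54.2 CPM in PTE+ mice and 28.6, 47.2, 74.1, 92.2 and 108 CPM in sham mice, with 17.9 to 105 CPM and a median of 55.7 in PTE-. The 3 highest sham mice lay above all PTE+ mice, while the 2 lowest lay among them. Ipsilaterally it was 30.3, 41.5, 52.7 and 162 CPM in PTE+, 19.3, 34.2, 42.9, 47.3 and 88.4 CPM in sham, and 25.5 to 228 CPM with a median of 41.8 in PTE- mice, where a8_11 was the highest. The groups overlapped, and 1 library set each upper end, a9_19 in PTE+ and a8_11 in PTE-. The fitted log2 fold change of PTE+ against PTE- was -0.51 contralaterally (SE 0.41, 95% interval -1.37 to 0.34) and 0.0054 ipsilaterally (SE 0.65, -1.35 to 1.37). The ipsilateral value was 0.58 without a8_11 and -0.78 without a9_19. For Abat, the transaminase before it, contralateral CPM ran from 138 to 500.2 in PTE+, 120.4 to 462 in PTE- and 337 to 406 in sham mice, and ipsilateral CPM from 259.8 to 732, 0 (a8_11) to 577 and 280.0 to 806. Sham mice were the tightest contralateral group for Abat, at 365 ± 25.5 CPM (SD, n = 5) against 374 ± 150 (n = 5) in PTE+. Its fitted log2 fold changes of PTE+ against PTE- were 0.30 (SE 0.30, -0.32 to 0.92) and 0.44 (SE 0.91, -1.46 to 2.34), the latter 0.29 without a8_11.

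**Figure D1:**
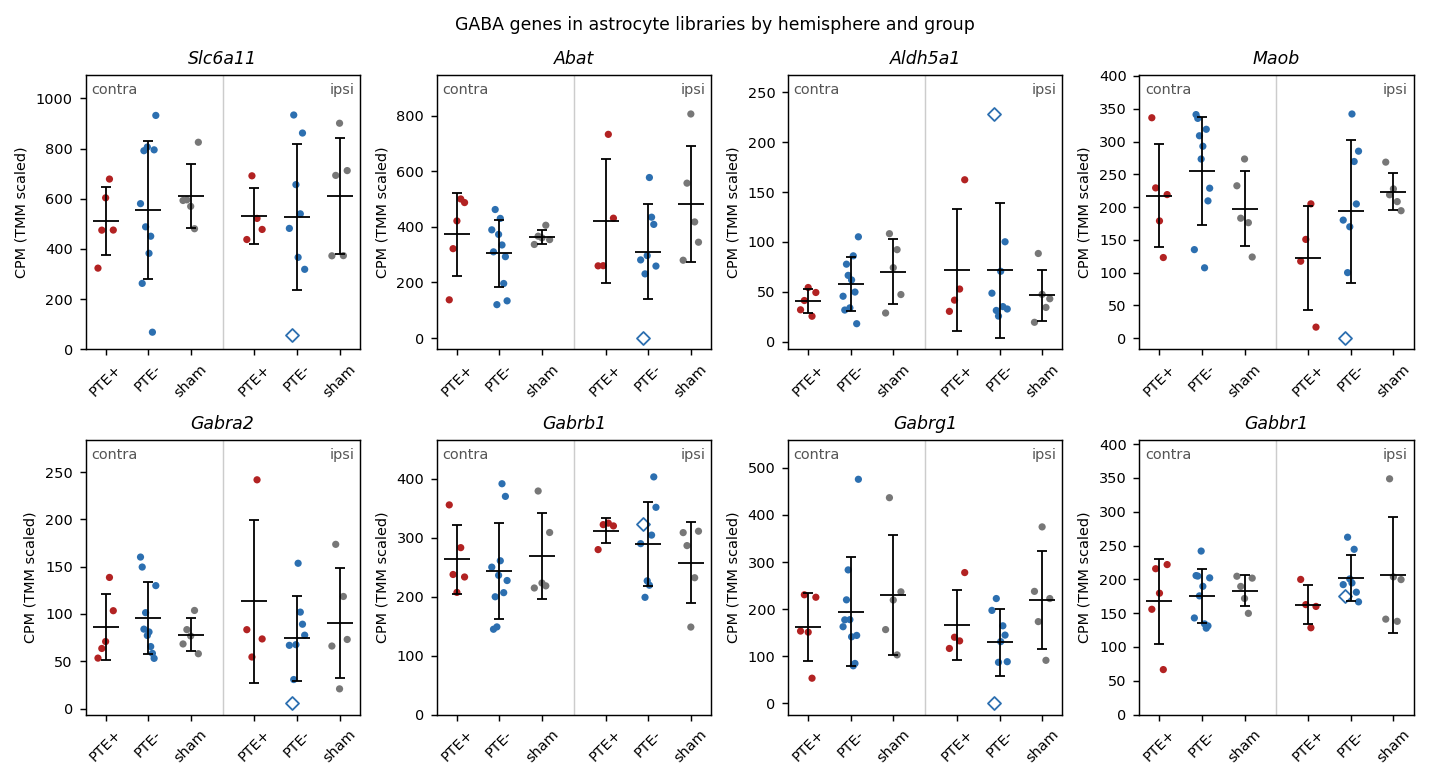
Levels of the 8 genes in each library, in TMM-scaled CPM on a linear axis, by hemisphere and group; points are libraries, the bars are the mean and SD, and the open diamond is the ipsilateral library of PTE- mouse a8_11. The groups overlap in all 8 genes, and the diamond lies at 0 for Abat and Gabrg1 and at 228 CPM, the top, for Aldh5a1.

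The GABA-A subunit genes overlapped between groups as well. Gabra2, which encodes an alpha subunit, was 53.3 to 139 CPM in contralateral PTE+, 53.1 to 160.1 in PTE- and 58.0 to 104 in sham mice, and 54.5 to 242, 5.40 (a8_11) to 154 and 20.8 to 174 CPM ipsilaterally. Its highest ipsilateral value belonged to PTE+ mouse a9_18, without which the fitted log2 fold change of PTE+ against PTE- went from 0.61 (SE 0.64, 95% interval -0.74 to 1.96) to -0.072. The contralateral value was -0.16 (SE 0.31, -0.80 to 0.48). Gabrb1, a beta subunit, was 207 to 356 CPM in contralateral PTE+, 145 to 392 in PTE- and 215 to 379.5 in sham mice. Ipsilateral PTE+ mice were close together at 280.1, 320.3, 322 and 325 CPM, within the 199 to 403 CPM of PTE- and reaching above the 149 to 311 CPM of sham mice. The fitted log2 fold changes of Gabrb1 for PTE+ against PTE- were among the narrowest of the members, at 0.11 contralaterally (SE 0.24, -0.38 to 0.60) and 0.11 ipsilaterally (SE 0.25, -0.42 to 0.63). Gabrg1, a gamma subunit, was 53.6 to 231 CPM in contralateral PTE+, 79.9 to 476 in PTE- and 103 to 437 in sham mice, and 117 to 278, 0 (a8_11) to 223 and 91.5 to 375 CPM ipsilaterally. Its fitted log2 fold changes were -0.26 (SE 0.40, -1.09 to 0.58) and 0.36 (SE 0.89, -1.51 to 2.24), and without a8_11 the SE of the latter went to 0.35 and its value to 0.21.

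Gabbr1, the GABA-B subunit, held the most even level of the 8. Contralaterally it was 66.6, 156, 179.5, 216 and 222 CPM in PTE+ mice and 149.7, 172, 189.5, 202 and 205 CPM in sham mice, with 128 to 242 CPM and a median of 183 in PTE-. A single PTE+ mouse, a9_18, lay below all others. Ipsilaterally it was 128, 159.9, 163 and 199.9 CPM in PTE+ and 138, 141, 199.6, 204 and 349 CPM in sham mice, with 167 to 262 CPM and a median of 193 in PTE-. Thus 3 of 4 ipsilateral PTE+ mice lay below every PTE- mouse. The difference in mean log2(CPM + 1) was -0.31 (2-sided exact permutation p = 0.0606, Benjamini-Hochberg value 0.840 over 48). Among a9 mice alone it was -0.39 (exact permutation p = 0.0357, unadjusted), where 3 against 5 mice allow 0.0179 at the lowest. That p was the smallest of the tests within a name prefix over all members and group comparisons, so it was picked from many. The 1 PTE+ and 3 PTE- mice of the a8 name differed by -0.049. Without PTE+ mouse a9_18 the difference over both name prefixes was -0.21. edgeR gave -0.31 for this comparison (SE 0.28, 95% interval -0.91 to 0.28) and -0.065 for the contralateral one (SE 0.24, -0.56 to 0.43).

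None of the 8 members passed the test in any of the 6 comparisons between groups. By edgeR's quasi-likelihood test with Benjamini-Hochberg adjustment over all genes, no member's adjusted p was below 0.9998, and 0 of 8 had an unadjusted p under 0.05. Over all genes that share was 2.21%, 1.54% and 1.23% in contralateral PTE+ against PTE-, PTE- against sham and PTE+ against sham, and 1.75%, 1.58% and 1.66% in the same ipsilateral comparisons. With contralateral PTE+ against PTE-, 0 of 8 members passed the 3 thresholds that the methods combine, a fold of 1.2 or more, a mean TPM over 5 in either group and a p under 0.05 before adjustment, where 1.26% of 14642 genes did, and 0.00683% had an adjusted p under 0.05. Of the members 2 had positive and 6 negative fitted values, with a median of -0.14 (log2) beside -0.047 over all genes. For contralateral PTE- against sham the background was 0.751% by the criteria and 0% by adjusted p, for PTE+ against sham 0.512% and 0%, and again 0 of 8 members counted in each. Ipsilaterally the criteria held for 0.503% of 14903 genes in PTE+ against PTE-, 0.986% in PTE- against sham and 0.490% in PTE+ against sham, with 0% by adjusted p in each, and for 0 of 8 members. At these rates a list of 8 would rarely hold a call, so the count of 0 sets the members apart in no way. DESeq2 also placed 0 of 8 past the criteria in each comparison. limma voom with quality weights placed Maob past them contralaterally, with log2 fold changes of -0.42 for PTE+ against PTE- and 0.49 for PTE- against sham, and limma on log2(TPM + 1) did so for Gabrb1 in ipsilateral PTE+ against sham (0.92), none with an adjusted p under 0.05. Aldh5a1 passed the criteria in contralateral PTE+ against sham only when sham mouse a8_15 was left out, at -0.99 on the log2 scale against -0.80 with all libraries.

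The intervals give the range of differences that these data leave room for. Contralaterally the widest, that of Aldh5a1, spanned -1.37 to 0.34 on the log2 scale for PTE+ against PTE-, and the narrowest, those of Gabbr1 and Gabrb1, stayed within 0.60 of 0 in either direction. Ipsilaterally the interval of Maob reached -2.57, so that a difference of that size lay within the range for 4 against 8 mice, a8_11 included. Maob, Abat and Gabrg1, the members at the counting limit in a8_11, had the highest SE there (0.91, 0.91 and 0.89). With the same mice the SE was 0.25 for Gabrb1 and 0.28 for Gabbr1. Elsewhere the fitted log2 fold changes ran from -0.28 (Aldh5a1) to 0.37 (Maob) in contralateral PTE- against sham and from -0.80 (Aldh5a1) to 0.14 (Gabra2) in contralateral PTE+ against sham. Ipsilaterally they ran from -0.76 (Gabrg1) to 0.62 (Aldh5a1) in PTE- against sham and from -0.87 (Maob) to 0.63 (Aldh5a1) in PTE+ against sham. The groups of no member were fully separate, where 0.0478%, 0.0273% and 0.628% of all genes tested were in contralateral PTE+ against PTE-, PTE- against sham and PTE+ against sham, and 0.168%, 0.0939% and 1.10% in the same ipsilateral comparisons. In bulk libraries, fewer astrocytes among the cells and less RNA of a gene per astrocyte cannot be told apart.

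**Figure D2:**
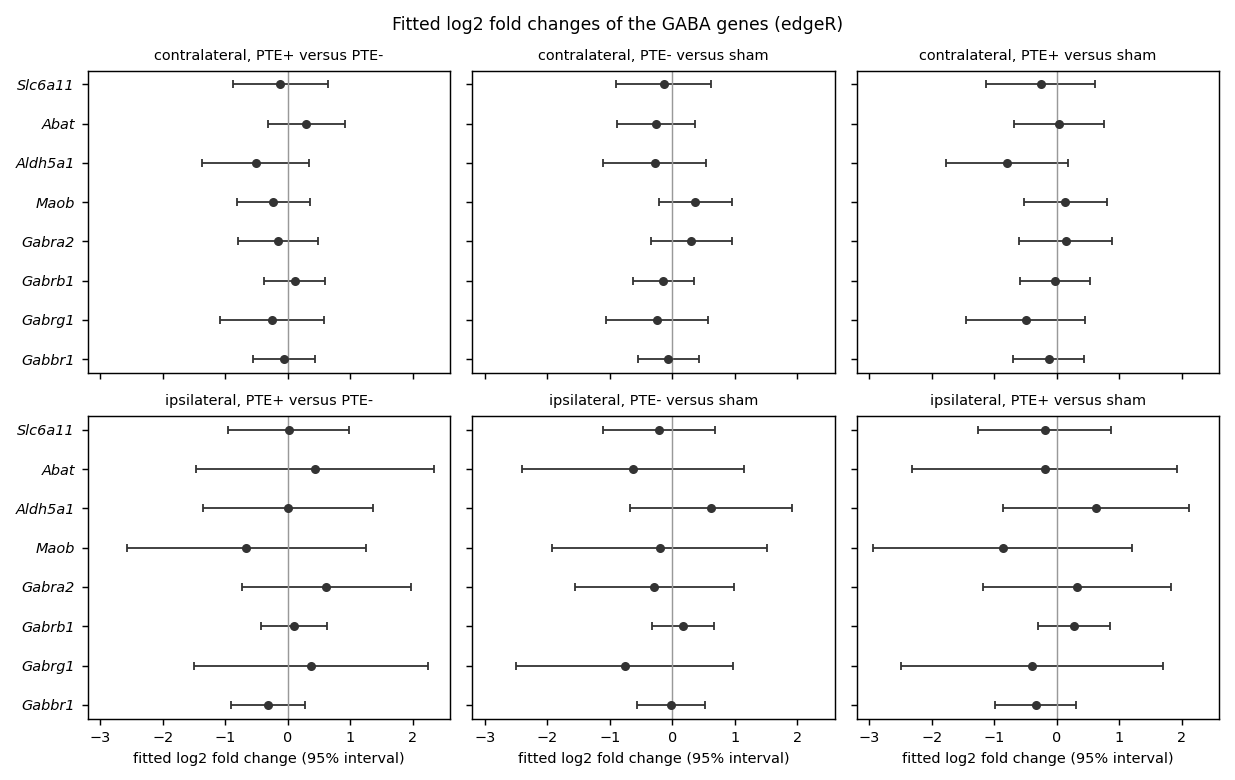
Fitted log2 fold change (edgeR) of each gene with its 95% interval in the 6 group comparisons, contralateral above and ipsilateral below; the vertical line marks no difference. All 48 intervals cross the line, and ipsilateral intervals of Abat, Maob and Gabrg1 are the widest.

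The hemispheres of the same mouse could be compared in 17 mice, 4 PTE+, 8 PTE- and 5 sham. The main edgeR fit did not hold the mouse as a block, so its SE and intervals are unpaired. By it 0 of 8 members had an adjusted p under 0.05 between ipsilateral and contralateral libraries within PTE+, PTE- or sham mice, and 0 of 8 in the side-to-side difference of PTE+ against PTE- or of injured against sham mice, beside 0% of 15731 genes in all 5 comparisons. Unadjusted, 0 of 8 were under 0.05 in each of them, where 2.93%, 4.56% and 2.05% of all genes were between sides in PTE+, PTE- and sham mice, and 2.94% and 2.4% in the side-to-side differences. With the mouse as a block it was 0 of 8 too. By edgeR's fitted value the side-to-side difference of injured from sham mice was largest for Aldh5a1. In sham mice its ipsilateral minus contralateral log2(CPM + 1), scaled over both hemispheres, was -1.41, -0.65, -0.58, -0.31 and -0.15. All 5 sham mice were thus lower on the ipsilateral side (exact sign-flip permutation p = 0.0625, the smallest that 5 mice allow). In PTE+ mice it was -0.38, -0.12, 1.04 and 1.67 and in PTE- mice -1.27, -1.07, -0.45, 0.10, 0.17, 0.80, 0.98 and 2.77 (a8_11), so that 7 of 12 injured mice were higher ipsilaterally. The means differed by 0.97 (exact permutation p = 0.0926, Benjamini-Hochberg value 0.978 over 48 tests of sides), and edgeR gave 1.28 (SE 0.70, 95% interval -0.14 to 2.70). Without a8_11 these were 0.75 and 0.99.

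Maob lay far lower on the ipsilateral side in some injured mice. Its side-to-side difference was -3.65, -1.56, -0.25 and 0.75 in PTE+ mice and -0.28, 0.17, 0.23, 0.23 and 0.63 in sham mice. PTE- mice ran from -8.37 (a8_11) to 1.32, with 4 of 8 higher ipsilaterally. The sham mice lay close to 0 and the injured ones to both sides of it, and edgeR gave -0.76 for injured against sham (SE 0.87), or -0.59 without a8_11. The means differed by -1.34 and, without a8_11, by -0.69 (exact permutation p = 0.291 and 0.318). The other members' side-to-side differences ran on both sides of 0 in each group. The widest beside those of a8_11 was 3.62 for Slc6a11, in a PTE- mouse whose contralateral library was the lowest of its group (a9_15). Gabbr1 was higher ipsilaterally in 6 of 8 PTE- mice (mean 0.26 ± 0.42 SD, exact sign-flip permutation p = 0.133, Benjamini-Hochberg value 0.978), against 2 of 4 PTE+ and 2 of 5 sham mice.

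**Figure D3:**
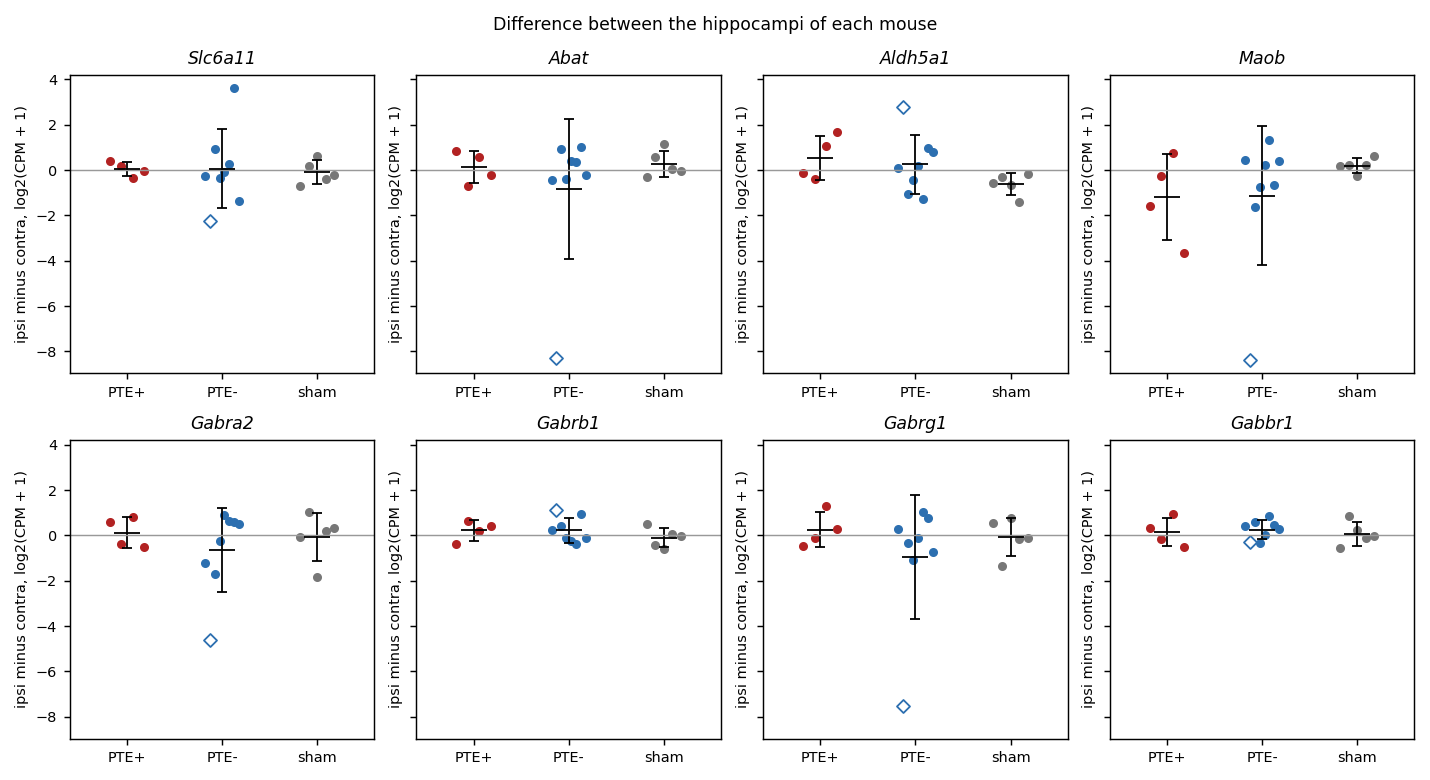
Ipsilateral minus contralateral log2(CPM + 1) of each gene in the 17 mice with both libraries; points are mice, bars the mean and SD of 4 PTE+, 8 PTE- and 5 sham mice, and the open diamond is PTE- mouse a8_11. Points lie on both sides of 0 in nearly all panels, and the 5 sham mice of Aldh5a1 lie below it.

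Within their families the members differed in how far they made up the whole. Shares of the family's summed TPM were computed in each library, a comparison added after the data had been seen. Gabrb1 made up a median of 97.5% of beta subunit transcripts (88.1% to 100%) and was the highest beta subunit in 37 of 37 libraries. Gabrg1 made up 92.7% of gamma subunit transcripts (64.9% to 100%) and was highest in all 36 libraries with any, and Gabbr1 made up 88.8% of GABA-B subunit transcripts (60.8% to 100%) and was highest in 37. The partner subunit Gabbr2 had the remaining 11.2%, at a median of 11.2 TPM. Among alpha subunits Gabra2 (41.7%) and Gabra4 (38.5%) were close, Gabra2 being highest in 19 libraries, Gabra4 in 17 and Gabra5 in 1, that of a8_11.

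Maob made up a median of 83.4% of the monoamine oxidase transcripts and exceeded Maoa in 35 of 37 libraries. Contralaterally its share was 80.0% ± 4.12 (SD, n = 5) in PTE+, 88.7% ± 6.34 (n = 10) in PTE- and 76.6% ± 12 (n = 5) in sham mice. The PTE- shares began at 81.3% and reached 99.9%, while the PTE+ shares ended at 84.2% and the sham shares at 89.4%. The difference was 12.1 percentage points for PTE- against sham (exact permutation p = 0.0107) and -8.74 for PTE+ against PTE- (exact permutation p = 0.0160). Ipsilaterally the share was 63.2% ± 29.0 (n = 4), 73.8% ± 26.8 (n = 8) and 83.0% ± 1.40 (n = 5), with -19.8 points between PTE+ and sham (exact permutation p = 0.0159). Single libraries set these sizes: without a9_19 the ipsilateral PTE+ share was 77.6% ± 4.39 (n = 3) and the difference from sham -5.43 points (exact permutation p = 0.0357), and without a8_11 the PTE- share was 83.2% ± 4.13 (n = 7). Without sham mouse a8_16 the contralateral difference of PTE- from sham was 7.19 points (exact permutation p = 0.0609). With all libraries each of these differences had a Benjamini-Hochberg value of 0.144 over the 36 share comparisons, as had Gabrb1 in ipsilateral PTE+ against sham (-2.35 points, exact permutation p = 0.0159). None of the 36 differences passed the adjustment.

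**Figure D4:**
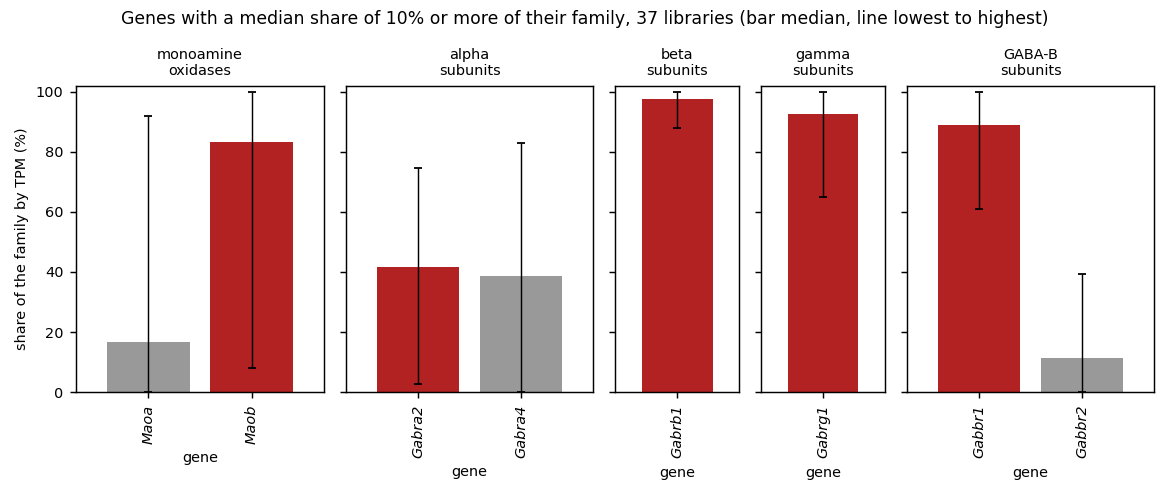
Share in the summed TPM of the family, in percent, of the genes with a median share of at least 10%, as the median (bar) and the lowest to highest value (line) over the libraries; members of the list are red and other family genes grey. The red bars of Gabrb1 (97.5%), Gabrg1 (92.7%), Gabbr1 (88.8%) and Maob (83.4%) fill most of their families, while Gabra2 (41.7%) stands beside Gabra4 (38.5%) among the alpha subunits.

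The rest of the GABA pathway was read from a list of 44 further genes of uptake, synthesis and breakdown, release, receptor subunits, and receptor clustering and traffic, of which 35 were tested contralaterally and 34 ipsilaterally. In contralateral PTE+ against PTE- 1 gene met the criteria of the methods, 2.86% of those tested beside 1.26% of all genes, and none had an adjusted p under 0.05. In contralateral PTE- against sham Gabra3, an alpha subunit gene, met the criteria as lower, with a log2 fold change of -4.93 (SE 1.87) and an edgeR adjusted p of 0.9999. Without PTE- mouse a9_13 the fitted value was -7.96. Gabra3 was 2.52, 6.93, 8.81, 21.2 and 26.4 CPM in sham mice, and 0 to 3.84 CPM in PTE-. It was above 3 counts in 10 of 20 contralateral libraries, so the size of the fold change rests on libraries at the counting limit. Ipsilaterally Gabra3 ran from 0 to 28.8 CPM in PTE- (highest in a8_14) and from 0 to 13.4 CPM in sham mice. These groups thus overlapped there. Its ipsilateral share of alpha subunit transcripts had a median of 0.136% in PTE- and 1.68% in sham mice, with means of 6.08% and 2.26%. For the contralateral comparison the test was as follows. The exact permutation test gave p = 0.000666 (Benjamini-Hochberg value 0.0689 over 207 tests of pathway genes).

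Markers of other cells were read in the same comparisons. In contralateral PTE+ against PTE- all 8 neuronal markers had positive fitted values, with a median of 1.30 and 2 past the criteria. Their summed level ran from 110 to 1288 TPM in PTE+, highest in a9_19, from 113 to 262 TPM in PTE- and from 115 to 737 TPM in sham mice. In PTE- against sham, where Gabra3 was lower, 7 of 8 had negative values, with a median of -0.66. The endothelial and mural markers also had 6 of 6 positive values in PTE+ against PTE-, with 1 past the criteria and sums of 813 to 5599 and 422 to 2007 TPM. Astrocyte markers had 9 of 10 negative values in contralateral PTE+ against PTE- (median -0.15, 0 past the criteria) and in ipsilateral PTE+ against sham (median -0.31, 2 past them). Of the same 10, 7 had negative values in ipsilateral PTE- against sham (median -0.30, 2 past the criteria). In ipsilateral PTE+ against PTE- 5 did (median -0.018, 0 past the criteria). In contralateral PTE- against sham the microglia markers had 7 of 7 positive values (median 0.78, 0 past the criteria) and the ependymal and choroid plexus markers 4 of 4 (median 0.50, 1 past them). The defining markers were not at 0, Snap25 having a median of 70.8 TPM over all libraries, and their part in the differences was not tested.

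In the other comparisons few pathway genes met the criteria. Odc1, the ornithine decarboxylase that makes putrescine, was higher by them in contralateral PTE- against sham, with a log2 fold change of 0.99 (SE 0.40, adjusted p = 0.9999 by edgeR) and means of 99.6 and 55.7 TPM. Without PTE- mouse a9_14 it was 0.70 and no longer met them. With 2 lower and 1 higher of 35, 8.57% of the list counted beside 0.751% of all genes. In ipsilateral PTE+ against PTE- Gabarap, which binds GABA-A receptors and takes part in autophagy, was lower by the criteria (-0.72, SE 0.33, adjusted p = 0.99999 by edgeR), at 76.9, 95.2, 125 and 153 CPM in PTE+ and means of 246 and 337 TPM. This call was lost without any of PTE+ mice a9_17 (-0.64), a9_18 (-0.77) and a9_19 (-0.57) and PTE- mice a8_9 (-0.72), a9_12 (-0.73), a9_13 (-0.64) and a9_14 (-0.67). It was 1 of 34 genes, or 2.94%, beside 0.503% of all. By edgeR 0 of the tested pathway genes met the criteria in contralateral PTE+ against sham, in ipsilateral PTE- against sham and in ipsilateral PTE+ against sham, 0 had an unadjusted p under 0.05, and DESeq2 placed 0, 1 and 0 past them. Among the genes with the smallest p there were Slc6a12 (mean 0.08 TPM in PTE+ and 4.22 in sham), Best1 and Odc1, then Lhfpl4, Gphn and Plcl1, and Gphn and Gabarap. The median fitted value over the list was 0.20, -0.13 and 0.14 in the 3 contralateral and 0.11, -0.13 and 0.12 in the 3 ipsilateral comparisons, against -0.047 to 0.068 over all genes.

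By their medians, the genes of neuronal GABA synthesis and release that were read here were low in these libraries. Gad1, a GABA-forming decarboxylase, had a median of 9.38 TPM, Gad2 one of 0.81 TPM, and Slc32a1, the vesicular GABA transporter, was above 3 counts in 9 of 37 libraries. These 3 genes also belong to the list of interneuron markers, in which Npy (65.6 TPM) and Pvalb (20.5 TPM) had higher medians, and Gad1 reached 91.3 TPM. In contralateral PTE+ against PTE- 7 of the 8 interneuron markers tested had positive fitted values, 0 past the criteria. In contralateral PTE- against sham 6 of 8 had negative values, 1 past the criteria. Of the genes of the putrescine route beside Maob, Odc1 had a median of 73.5 TPM, Sat1 565 TPM and Aldh9a1 96.5 TPM. Best1, a channel described as passing GABA out of astrocytes, had a median of 0.04 TPM and was above 3 counts in 17 of 37.

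The members did not vary together as a block between mice. With group means removed, 15 of 28 pairs of members correlated positively over the 20 contralateral libraries, with a median Pearson r of 0.042 and a range from -0.50 to 0.71. One pair had an adjusted p under 0.05 by permutation over 28 pairs: Gabrg1 and Gabbr1 (r = 0.71, adjusted permutation p = 0.00812, and Spearman rho = 0.61, adjusted permutation p = 0.146). Without the 2 libraries farthest from the median of Gabrg1 r was 0.64 and its adjusted p was no longer under 0.05. Over the 17 ipsilateral libraries 18 of 28 pairs were positive with a median r of 0.18, and 7 had an adjusted permutation p under 0.05, led by Abat with Gabrg1 (r = 0.93, rho = 0.54) and Abat with Maob (r = 0.90, rho = 0.69). These rested on a8_11, the library with no counts of Abat and Gabrg1. Without it r was 0.16 and 0.18 and 0 of 28 pairs had an adjusted p under 0.05, as was so for Spearman correlation with all libraries. The prefix of the mouse name and library depth are shared by the genes of a library and were not removed.

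**Figure D5:**
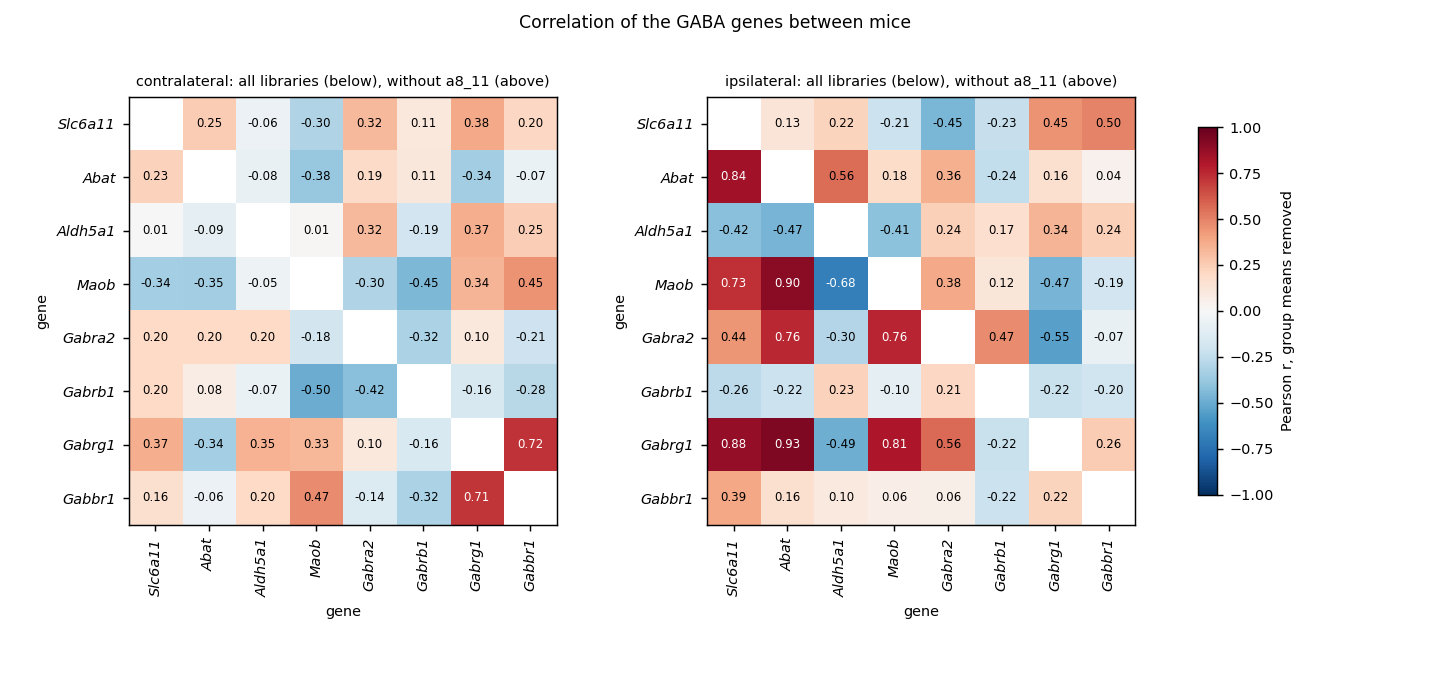
Pearson r between pairs of the 8 genes over mice, from log2(CPM + 1) with group means removed, for contralateral (left) and ipsilateral (right) libraries; values below the diagonal use all libraries and those above it leave out mouse a8_11. Ipsilateral r of Abat with Gabrg1 is 0.93 below and 0.16 above the diagonal, while contralateral r of Gabrg1 with Gabbr1 is 0.71 and 0.72.

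The genes most like each member over the contralateral libraries were named from 11710 genes with a median of at least 100 counts, as a description. Slc6a11 was most like Lrrc4b, Mtss1l and Inppl1 (r = 0.92 each), with ipsilateral r of 0.29, 0.32 and 0.59, or 0.19, 0.44 and 0.53 without a8_11. Gabra2 was most like Arf3 (r = 0.88), Ccni (0.86) and Pcsk1n (0.85), with ipsilateral r of 0.60, 0.62 and -0.41, or 0.43, 0.40 and 0.0996 without a8_11. Gabrb1 was most like Ogt (r = 0.78), Mcc (0.75) and Dynlt1c (0.73), with ipsilateral r of 0.20, 0.23 and 0.34, or 0.64, 0.50 and 0.45 without a8_11. Gabbr1 was most like Lap3 (r = 0.77), Eif6 (0.76) and Adck1 (0.75), with ipsilateral r of 0.23, 0.18 and 0.23. Those of Abat with Plppr2 (r = 0.86), Mapt (0.86) and Zfp423 (0.84) were 0.83, 0.94 and -0.065 ipsilaterally, and -0.29, -0.01 and -0.24 without a8_11. Maob was most like Sod1 (r = 0.82) and Phf5a (0.81), with ipsilateral r of -0.63 and -0.81, or -0.44 and -0.42 without a8_11. Gabrg1 was most like Alg13 (r = 0.85), Dhx33 (0.81) and Bmp7 (0.81), with ipsilateral r of 0.11, 0.29 and -0.23, or -0.52, -0.15 and -0.42 without a8_11. Aldh5a1 was most like Soga3 (r = 0.73), Eps8l3 (0.67) and Cyfip1 (0.66), with ipsilateral r of -0.34, -0.22 and -0.01, or 0.23, 0.036 and 0.59 without a8_11. Over all 8 members 16 of 24 likenesses had the same sign in the other hemisphere, or 15 of 24 without a8_11. The libraries of a hemisphere share depth and processing, and the highest of 11710 values of r is high by selection.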

How the data were processed

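RNA-seq of ACSA-2+ hippocampal astrocytes was read from 2 kinds of deposited values for 37 libraries, grouped by the sample labels. The authors trimmed reads with Trim Galore 0.6.4 and estimated the expected count of each gene, without normalization, with RSEM 1.2.28 and Bowtie2 2.4.1 on mm10, and these expected counts are deposited as whole numbers. The authors deposited TPM from the same RSEM run, scaled by transcript length and to the same total per library. The annotation release is not given in the sources used here, and symbols and positions were taken from GENCODE on GRCm38 (21856 of 21975 identifiers). The amplified cDNA carries no molecular identifiers that the methods name, so counting limits cover counting error only. The methods tested with DESeq2 1.36.0.

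Here counts were fitted in R 4.3.3 with edgeR 4.0.16 (TMM, filterByExpr, quasi-likelihood F test), all 3 groups of a hemisphere in 1 fit, with Benjamini-Hochberg adjustment over all genes tested. The thresholds that the methods combine, called their criteria here, were a fold of 1.2 or more, a mean TPM over 5 in either group and a p under 0.05 before adjustment. Hemispheres were fitted over the 17 mice with both libraries, as the means of each group and hemisphere. The mouse was not a block in that fit, which treated the libraries of 1 mouse as independent, and a fit with it was an alternative. The ipsilateral and contralateral libraries of 1 name come from the same animal, and their deviations from the group means had a median correlation of 0.0903 (-0.0587 to 0.372), against -0.0200 between different mice. Single values were tested by exact permutation of log2(CPM + 1), with a pseudocount of 1, and correlations by 100000 permutations. DESeq2 1.42.0 and limma 3.58.1 were alternatives. The fits were tested on simulated counts with a spread set well below that of these data. Here edgeR's common biological coefficient of variation was 1.32 contralaterally and 1.40 ipsilaterally. The simulation therefore does not show how well changes would be found at the spread of these libraries. The count and TPM columns of a library matched best in 37 of 37, and 0 pairs of libraries were identical.

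The members, the gene lists and the tests were chosen with earlier results of these data known. All 8 members are named. Their fold changes are given for PTE+ against PTE-, and elsewhere by range or where a setting passed the criteria, and some Aldh5a1 and Maob values were singled out after they had been seen. Pathway genes are named if past the criteria, otherwise up to 3 by smallest p, and 3 genes per member by contralateral r. Results of some pathway genes and of some genes like a member are not reported here. No library was left out. Plots were made in matplotlib 3.10.9 under Python 3.11.15.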

Additional observations from a re-analysis of the deposited data

Results flagged for a closer look

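In 48 sets of libraries of 1 group and hemisphere, 6 had a lowest library that lay farther from its neighbour than Dixon's criterion allows, where chance gives about 1 set in 20. Of these, 4 concern the ipsilateral library of PTE- mouse a8_11. It had 55.8 CPM of Slc6a11 (next lowest 319), 0 CPM of Abat (next 231), 0.0517 CPM of Maob (next 99.99) and 0 CPM of Gabrg1 (next 87.2). In the same library 3 counts correspond to 0.0775 CPM, and its Gabrb1, 324 CPM, lay within its group. Without it the ipsilateral PTE- means went from 311 ± 170.2 to 356 ± 124 CPM for Abat (SD, n = 8 and n = 7) and from 194 ± 109 to 222 ± 82.0 CPM for Maob.

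Contralateral Slc6a11 was 68.3 CPM in PTE- mouse a9_15, next to 263 CPM in the mouse above it. Its ipsilateral library was not low, which gave the mouse the widest side-to-side difference of Slc6a11. Gabrb1 in ipsilateral PTE+ mouse a8_10 was 280.1 CPM, next to 320.3, within the 199 to 403 CPM of PTE- mice.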

How the results depend on the processing

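No result on the members gained an adjusted p under 0.05 in any alternative run. Of 126 counts of members under other settings 123 were unchanged, and the 3 others went from 0 to 1 past the criteria, by limma voom in contralateral PTE+ against PTE- (1) and PTE- against sham (1) and by limma on log2(TPM + 1) in ipsilateral PTE+ against sham (1). Leaving out each library in turn gave 0 to 1 members in contralateral PTE+ against sham and 0 elsewhere. With the mouse as a replicate block for the pairing, the counts between sides stayed at 0 and no call changed, while the side-to-side difference of Aldh5a1 for injured against sham went from 1.28 to 1.02.

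Pathway counts depended more on the setting, and the cause was not tested. In contralateral PTE+ against PTE- the count of 1 was 2 by DESeq2, 2 by voom, 0 with the 2 groups alone and 0 to 3 without 1 library, and in PTE+ against sham the count of 0 was 1 by voom, 1 on log2(TPM + 1) and 0 to 1 without 1 library. In ipsilateral PTE+ against PTE- the count of 1 was 0 with no filter, 2 by voom, 4 on log2(TPM + 1), 0 with the 2 groups alone and 0 to 2 without 1 library. In ipsilateral PTE- against sham the count of 0 was 1 by DESeq2, 2 by voom and 0 to 1 without 1 library, and in PTE+ against sham 1 by voom and 2 on log2(TPM + 1). Significant correlations numbered 0 in both hemispheres by Spearman correlation and 0 without the 2 farthest libraries, and 0 ipsilaterally without a8_11, a choice made after seeing the data.

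The sign of a fitted log2 value reversed in 12 of 325 alternatives for single genes, none of them calls. For contralateral PTE+ against PTE- these were Slc6a11 (0.24) and Gabra2 (0.040) on log2(TPM + 1) and Aldh5a1 (0.071) and Gabrg1 (0.028) by voom. For the ipsilateral comparison they were Slc6a11 with the name prefix as a covariate (-0.023), Abat (-0.24), Gabra2 (-0.23) and Aldh5a1 (-0.043) by voom, and Aldh5a1 with RLE size factors (-0.078) and DESeq2 (-0.078). By voom Aldh5a1 between sides in PTE+ was -0.084 and Gabra2 in the side-to-side difference of PTE+ against PTE- was -0.22. Without 1 library, contralateral PTE+ against PTE- ran from -0.25 to 0.0061 for Slc6a11, -0.020 to 0.21 for Gabrb1 and -0.17 to 0.14 for Gabbr1, and the ipsilateral one from -0.14 to 0.18 for Slc6a11, -0.78 to 0.58 for Aldh5a1 and -0.072 to 0.89 for Gabra2. Against sham, PTE+ ran from -0.10 to 0.27 for contralateral Gabra2 and -0.16 to 1.04 for ipsilateral Aldh5a1, and between sides in PTE- Aldh5a1 ran from -0.076 to 0.81. With 4 to 10 mice a group and a spread as wide as that of Aldh5a1 or Maob, the intervals left room for differences up to their bounds.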

Other observations

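Slc6a12, a betaine and GABA transporter that was low in most libraries, was above 3 counts in 19 of 37. Its mean was 0.0625 TPM on the contralateral and 10.6 TPM on the ipsilateral side of the 4 PTE+ mice with both libraries, with an adjusted p of 1 by edgeR. PTE+ mouse a9_19 had 32.9 TPM, and without it the ipsilateral mean was 3.15 TPM. Among GABA-A subunits outside the list, Gabra4 had a median of 34.1 TPM and was above 3 counts in 35 of 37 libraries, while Gabrp and Gabrr3 were at or below 3 counts in all 37 and Gabra6 and Gabrq above it in 1 each. Of the auxiliary GABA-B subunits, Kctd12 was above 3 counts in 29, Kctd12b in 23, Kctd16 in 20 and Kctd8 in 18 libraries, with medians of 1.27, 2.10, 2.54 and 0 TPM.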
